A study of Metroxylon sagu with 6 samples.

Results

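The Calvin cycle and photorespiration enzymes of the sago palm (*Metroxylon sagu*) leaf were followed as 64 Unigenes out of 99933 listed in at least 1 library. A Unigene is a transcript assembled from the reads, since no genome was used. The 64 members were taken by a rule on annotation with no threshold on a measured value. The rule itself was chosen with earlier results of these data known. Their best Nr protein match is in oil palm (*Elaeis guineensis*, 47 members) or date palm (*Phoenix dactylifera*, 17 members), and their SwissProt match names an enzyme of the pathways. Without the condition on the Nr match the same SwissProt names took in 99 Unigenes, so 35 were left out.

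Leaf RNA of 3 trunking palms (ST1, ST4 and ST5), the control, and 3 non-trunking palms (SN7, SN8 and SN9) was sequenced with 1 library per palm. Every palm grew on peat soil in the same plantation, and a non-trunking palm is one that has not formed the starch-storing trunk. The sources used here do not state genotype, palm age, leaf position or hour of sampling. The palms of each phenotype stood together at a place of their own, so phenotype and place cannot be told apart. In bulk leaf RNA, fewer cells of a type and less RNA per cell cannot be told apart either.

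The Calvin cycle fixes carbon dioxide in the chloroplast stroma. Phosphoglycerate kinase (PGK) and glyceraldehyde-3-phosphate dehydrogenase (GAPDH) reduce the first product, and aldolase (FBA), transketolase (TKL), sedoheptulose-bisphosphatase (SBPase) and phosphoribulokinase (PRK) rebuild the acceptor sugar. Photorespiration recovers the carbon lost when Rubisco takes oxygen in place of carbon dioxide, and it runs through chloroplast, peroxisome and mitochondrion.

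Of the 64 members, 20 matched Calvin cycle enzymes, 25 matched photorespiratory enzymes, and 19 were taken in by a shared name only. The last are serine hydroxymethyltransferases SHMT4, SHMT6 and SHMT7, which are not the mitochondrial enzyme by name, and KPHMT (3-methyl-2-oxobutanoate hydroxymethyltransferase), an enzyme of pantothenate synthesis. No member carried the name glycolate oxidase, which stands in the rule (0 matches). The members fell into 32 clusters or single Unigenes, and 53 of them belonged to a cluster of 2 or more contigs. Reads were divided among the contigs of a cluster by the quantification, so the value of a single contig is uncertain to that extent. The lengths ran from 203 to 4437 nt with a median of 1496 nt, and 55 members were listed in all 6 libraries. The label held for most members, with exceptions in the Nr match. CL1493.Contig5_All, named aldolase by SwissProt, had a serine protease as best Nr match, CL6221.Contig2_All, named hydroxypyruvate reductase HPR2, had a dynein light chain, and the contigs of the CL2827 cluster, named chloroplast PGK, had a cytosolic form.

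Members took 1.02%, 1.38% and 0.809% of all expected counts in ST1, ST4 and ST5, and 1.62%, 1.32% and 1.5% in SN7, SN8 and SN9, so the groups overlapped in this share, SN8 lying under ST4. The transcripts were concentrated in few Unigenes. The 16 members with a mean of at least 100 CPM (counts scaled to library size with the TMM factors) held 96.1% of the member counts, and the 5 most abundant held 49.0%. From here, values of single palms are given in the order ST1, ST4, ST5 and then SN7, SN8, SN9.

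In FPKM, which corrects for length, aldolase 2 (FBA2) and serine-glyoxylate aminotransferase (SGAT) stood highest among the members. FBA2, which joins triose phosphates into hexose and heptulose phosphates, summed to 1038, 1154 and 492.6 FPKM over its 4 members in the trunking palms and to 2364, 1506 and 1697 FPKM in the non-trunking palms. SGAT, the peroxisomal enzyme that turns glyoxylate into glycine, summed to 1094, 1351 and 832.9 FPKM against 1193, 1370 and 1384 FPKM. The groups did not overlap for FBA2 and did for SGAT. The order of the levels below these was set by enzymes that lay close together. The P protein of glycine decarboxylase (GDC-P) averaged 671.3 ± 331.1 FPKM (SD, n = 3) in trunking palms, PRK 495.7 ± 117.5 FPKM and GAPDH subunit B 372.1 ± 71.3 FPKM, and these neighbours lay within their spread of one another. At the other end, phosphoglycolate phosphatase 2 (PGLP2) averaged 4.96 ± 1.22 FPKM and HPR2 2.11 ± 0.795 FPKM in the same palms. The chloroplast phosphatase PGLP1 averaged 120.3 ± 47.3 FPKM there, far above PGLP2.

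**Figure D1:**
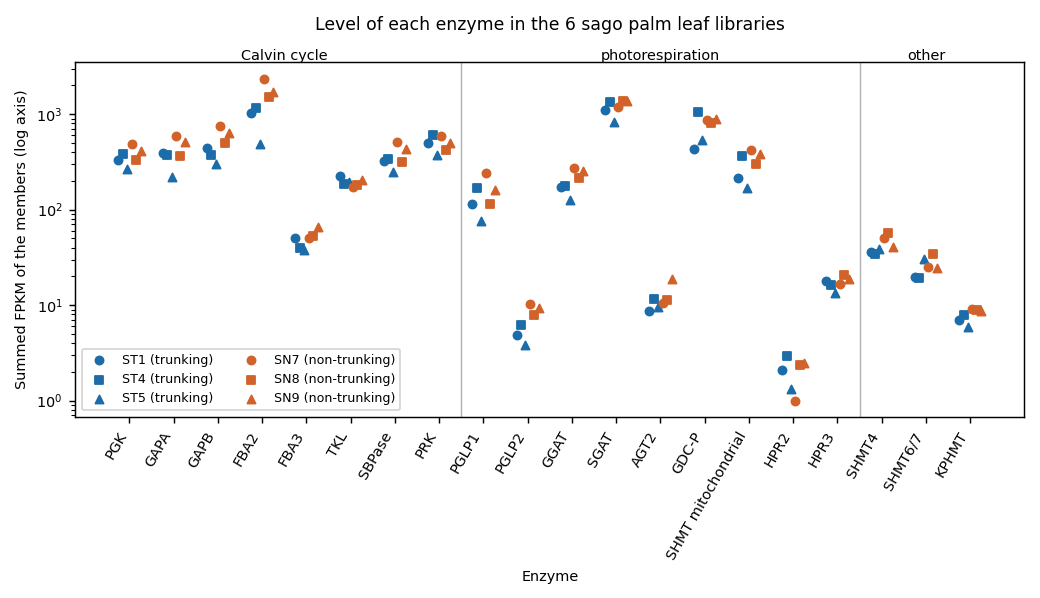
Summed FPKM of the members of each enzyme (log axis), 1 point per library, blue for trunking and orange for non-trunking palms. FBA2 lies above the other enzymes in all 3 non-trunking palms (1506 to 2364 FPKM), while both groups overlap for TKL and PRK.

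The comparison of non-trunking with trunking palms asked which of these transcripts differ between the phenotypes. Of the 57 members that passed the filter on low counts, edgeR's quasi-likelihood test with Benjamini-Hochberg adjustment over all Unigenes put 0 past an adjusted p of 0.05, and their smallest adjusted p was 0.443. Over all 45928 Unigenes tested, the same test called 0%. DESeq2 called 0 of the 61 members it gave an adjusted p, with a smallest adjusted p of 0.123, while it called 2.22% of all Unigenes. At an unadjusted p under 0.05 from edgeR, 5 members from 3 clusters were higher in non-trunking palms and 0 were lower. That is 8.77% of the members tested, where 5.43% of all Unigenes were higher and 4.43% lower at this level. This count was 1 without SN7 and 3 without ST1, where 3.94% and 4.52% of all Unigenes were higher.

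The members leaned to the non-trunking side as a description. Their log2 fold changes (non-trunking minus trunking, SE for their standard error) had a median of 0.48 against 0.02 over all Unigenes tested, and 49 of the 57 lay above 0, which is 86.0% where all Unigenes had 51.4%. Without SN7 the median was 0.28. In 14 members from 10 clusters all 3 non-trunking palms lay above all 3 trunking palms in CPM, and in 0 members all lay below. This is 24.6% of the tested members, beside 8.71% of all Unigenes higher and 8.55% lower in this way. With 1 palm left out in turn, the groups did not overlap in 17 to 24 members, against a background of higher Unigenes that itself grew to between 12.4% and 15.2%. The count was 22, 23 and 24 without ST4, SN8 and SN9, of which 1 without ST4 and 1 without SN9 lay lower in non-trunking palms. The 7 members that did not pass the filter are not in these counts.

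The median was above 0 in each pathway. The 20 Calvin cycle members had a median log2 fold change of 0.54, with 17 above 0 and 6 (30.0%) higher with no overlap, beside the 8.71% of all Unigenes. The 20 photorespiratory members tested had a median of 0.45, with 18 above 0 and 6 (30.0%) higher with no overlap. The 17 tested members outside the pathways had a median of 0.42, with 14 above 0 and 2 (11.8%) higher with no overlap, a share near that of all Unigenes. Whether the pathways differ from each other was not tested.

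**Figure D2:**
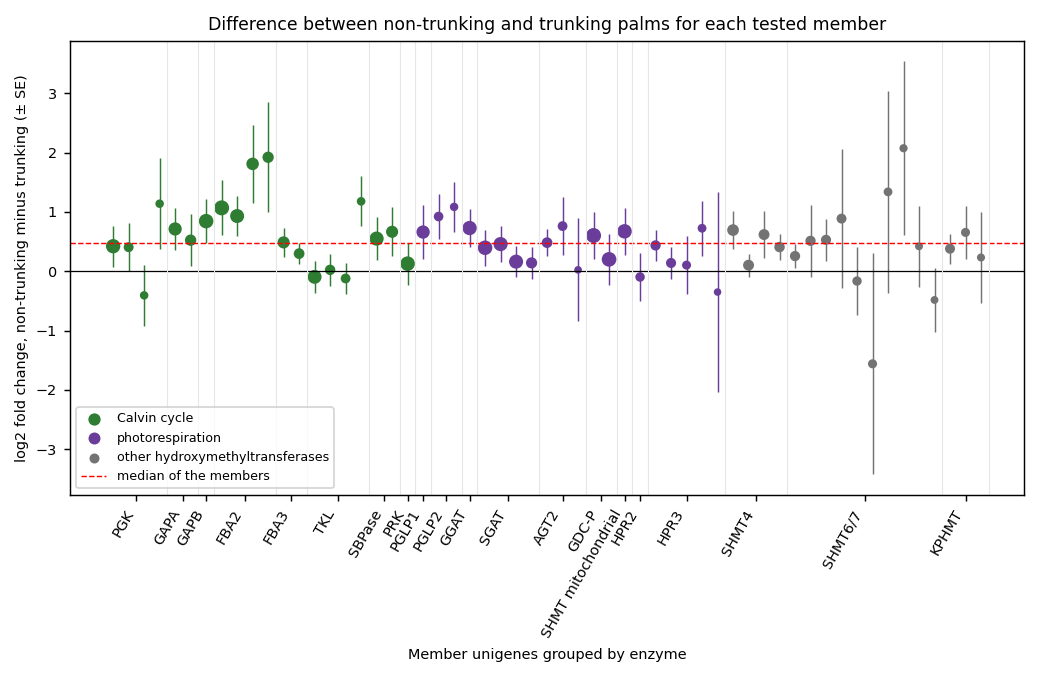
Log2 fold change (non-trunking minus trunking, edgeR) of each of the 57 tested members with its standard error, grouped by enzyme, with larger points for higher mean CPM. Most points lie above 0, with a median of 0.48 (dashed line), and the widest error bars belong to the SHMT6/7 contigs and an HPR3 contig.

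The differences within a group were as large as the leaning between groups. Among the 57 tested members SN7 held the highest CPM in 29 (50.9%), while it was highest in 23.1% of all Unigenes tested. ST5 held the lowest CPM in 25 members (43.9%), while it was lowest in 17.4% of all Unigenes. SN7 stood high and ST5 low in the abundant members above all. Over the 16 members with a mean CPM of at least 100, the median deviation from the 6-library mean, in log2 CPM, was -0.09, -0.04 and -0.60 in the trunking palms and 0.71, 0.03 and 0.10 in the non-trunking palms. SN8 and SN9 lay closer to ST1 and ST4 than to SN7 on this scale. With library size alone the medians were -0.13, 0.10 and -0.61 against 0.43, 0.04 and 0.28, and SN9 then lay closer to SN7. All Unigenes tested were themselves shifted on that scale, with medians of -0.036, 0.138 and 0.003 against -0.24, 0.02 and 0.158. The shift was downward in SN7 and upward in SN9, so these palms lay apart over all Unigenes. How close SN9 lay to SN7 in the members thus depended on the scaling. SN7 also had the lowest TMM scaling factor (0.824). With library size alone it was highest in 17 members (29.8%), beside 10.6% of all Unigenes tested. ST5 stayed lowest in 26 members (45.6%), beside 17.3% of all Unigenes on that scale.

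**Figure D3:**
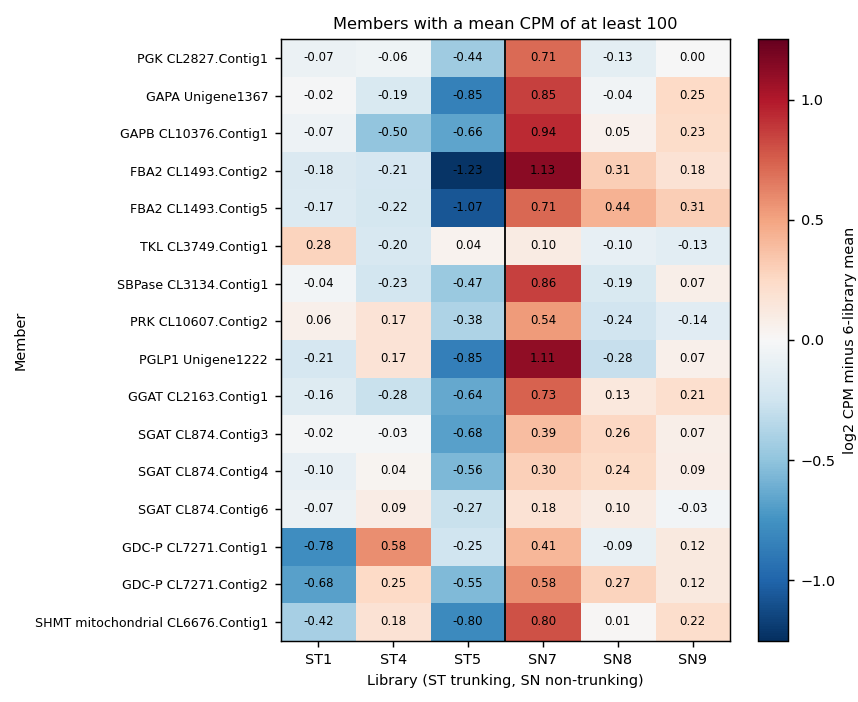
Log2 CPM of the 16 most abundant members in each library, minus the mean of the 6 libraries, with trunking palms left of the line. SN7 is the highest library in 14 of the 16 members and ST5 the lowest in 13.

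Among the Calvin cycle enzymes the main contigs of FBA2 and of GAPDH subunit B did not overlap between the groups. CL1493.Contig2_All, the main FBA2 contig, measured 1339, 1312 and 648 CPM in trunking and 3315, 1879 and 1724 CPM in non-trunking palms. Every non-trunking palm lay above every trunking palm, with SN7 far above the rest and ST5 far below. Its log2 fold change was 1.07 (SE 0.46, edgeR adjusted p = 0.519), and it was 0.71 without SN7. Contig5 and Contig1 of the same cluster, named for the largest positive changes, measured 389.6, 376.9 and 209.8 CPM against 720.3, 595.1 and 545.5 CPM, and 52.0, 47.5 and 14.1 CPM against 235.6, 62.3 and 100.5 CPM. Neither overlapped between the groups, and their log2 fold changes were 0.93 (SE 0.34, edgeR adjusted p = 0.447) and 1.81 (SE 0.66, edgeR adjusted p = 0.446). CL1493.Contig3_All overlapped, with 2.5, 24.2 and 3.52 CPM against 25.4, 23.1 and 66.3 CPM. Aldolase 3 (FBA3) had a summed level of 42.6 ± 6.44 FPKM (SD, n = 3) in trunking and 56.5 ± 8.32 FPKM in non-trunking palms, and the sums just failed to overlap, with 50.0 FPKM in ST1 and 50.7 FPKM in SN7, while its main contig overlapped.

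GAPDH carries out the step that uses NADPH, with subunits A and B. CL10376.Contig1_All, the only member matched to subunit B, measured 805.8, 598.3 and 534.0 CPM in trunking and 1615, 873.8 and 991.4 CPM in non-trunking palms. The groups did not overlap, although SN8 lay only a little above ST1. The log2 fold change was 0.84 (SE 0.37, edgeR adjusted p = 0.526), and 0.53 without SN7. For subunit A, Unigene1367_All had a log2 fold change of 0.71 (SE 0.35, edgeR adjusted p = 0.565), and its groups overlapped because SN8 lay under ST1. PGK, the ATP-using step before it, overlapped too, because SN8 lay under ST1 and ST4, and CL2827.Contig1_All had a log2 fold change of 0.42 (SE 0.34, edgeR adjusted p = 0.739).

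The groups overlapped in the main contigs of the other enzymes that rebuild ribulose bisphosphate. SBPase, specific to the cycle, is carried mostly by CL3134.Contig1_All, which measured 537, 469 and 399 CPM against 996, 482 and 577 CPM. SN7 alone stood apart there, SN8 lay within the trunking range, and the log2 fold change of 0.55 (SE 0.36, edgeR adjusted p = 0.678) was 0.18 without SN7. PRK, which makes the acceptor itself, measured 964, 1036 and 707 CPM against 1339, 781 and 838 CPM in CL10607.Contig2_All, a log2 fold change of 0.13 (SE 0.36, edgeR adjusted p = 0.938). The direction for PRK depended on 1 palm, with -0.16 without SN7 and -0.03 without ST5. TKL, which moves carbon pairs between sugars, measured 526, 377 and 445 CPM against 465, 404 and 395 CPM in CL3749.Contig1_All, and its log2 fold change was -0.09 (SE 0.27, edgeR adjusted p = 0.939), or 0.04 without ST1. A short and scarce contig of the same cluster, CL3749.Contig3_All, measured 0.967, 0.916 and 1.43 CPM against 2.26, 3.24 and 2.02 CPM with no overlap, a log2 fold change of 1.18 (SE 0.42, edgeR adjusted p = 0.443). With counts summed over the cluster the value was -0.09, so the cluster as a whole did not carry this difference.

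Photorespiration begins with phosphoglycolate phosphatase. The chloroplast form, Unigene1222_All (PGLP1), measured 167, 217 and 107 CPM in trunking and 415, 158 and 202 CPM in non-trunking palms. Only SN7 lay above the trunking range, and the log2 fold change was 0.66 (SE 0.45, edgeR adjusted p = 0.691). The scarce PGLP2 contigs, whose relative in *Arabidopsis thaliana* is cytosolic, did not overlap between groups. CL6943.Contig1_All measured 3.53, 4.37 and 2.26 CPM against 8.59, 5.97 and 4.74 CPM, a log2 fold change of 0.92 (SE 0.37, edgeR adjusted p = 0.489). CL6943.Contig2_All measured 0.967, 0.966 and 0.935 CPM against 2.60, 1.40 and 2.12 CPM, a log2 fold change of 1.08 (SE 0.42, edgeR adjusted p = 0.474). The 2 contigs share a cluster and are not separate evidence.

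The peroxisomal aminotransferases followed. CL2163.Contig1_All, matched to glutamate-glyoxylate aminotransferase (GGAT), measured 591, 544 and 424 CPM in trunking and 1097, 722 and 764 CPM in non-trunking palms. All non-trunking palms lay above all trunking palms, and the log2 fold change was 0.73 (SE 0.32, edgeR adjusted p = 0.521). SGAT was led by CL874.Contig4_All with 854, 942 and 623 CPM against 1127, 1082 and 974 CPM, which just failed to overlap, and its log2 fold change was 0.40 (SE 0.31, edgeR adjusted p = 0.727). In summed FPKM the SGAT groups overlapped while in summed CPM they did not, so this separation depended on the scaling. The alanine-glyoxylate aminotransferase 2 homologues (AGT2), mitochondrial by their match, were scarce, with 3 of 6 members tested and log2 fold changes from 0.02 to 0.76.

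In mitochondria, glycine decarboxylase and serine hydroxymethyltransferase turn glycine into serine. CL7271.Contig2_All, the most abundant GDC-P contig, measured 997, 1902 and 1087 CPM in trunking and 2387, 1930 and 1734 CPM in non-trunking palms. ST4 stood with the non-trunking palms and the groups overlapped, with a log2 fold change of 0.60 (SE 0.39, edgeR adjusted p = 0.675). ST4 was the highest palm of all in its sister CL7271.Contig1_All, which measured 611, 1563 and 880 CPM against 1390, 982 and 1137 CPM, a log2 fold change of 0.20 (SE 0.43, edgeR adjusted p = 0.915) and of -0.06 without ST1. Mitochondrial serine hydroxymethyltransferase (CL6676.Contig1_All) measured 600, 907 and 460 CPM against 1394, 809 and 934 CPM, a log2 fold change of 0.67 (SE 0.39, edgeR adjusted p = 0.632). ST4 again lay inside the non-trunking range. A further GDC-P Unigene, Unigene6515_All, was left out by its Nr match to another species. It measured 514.2, 652.0 and 369.2 CPM against 1283, 1066 and 848.0 CPM with no overlap, a log2 fold change of 1.06 (SE 0.35, edgeR adjusted p = 0.415). Adding it moved the ratio of summed GDC-P FPKM, non-trunking over trunking, from 1.27 to 1.39, and the groups overlapped either way.

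Hydroxypyruvate reductases HPR2 and HPR3, the side forms beside the main peroxisomal enzyme in *Arabidopsis*, were scarce and did not separate. CL6350.Contig1_All (HPR3) measured 8.76, 6.26 and 7.86 CPM against 13.2, 9.54 and 8.24 CPM, a log2 fold change of 0.44 (SE 0.27, edgeR adjusted p = 0.654). For CL6221.Contig2_All (HPR2) the log2 fold change was -0.10 (SE 0.40, edgeR adjusted p = 0.961), with 0.13 without ST4 and 0.14 without SN7.

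The members outside the pathways include SHMT4 and KPHMT, whose 4 and 3 contigs all had log2 fold changes above 0. Summed SHMT4 was 35.8, 34.4 and 39.1 FPKM in trunking and 50.9, 56.6 and 40.3 FPKM in non-trunking palms, and summed KPHMT was 7.01, 7.83 and 5.87 FPKM against 9.2, 8.98 and 8.6 FPKM. Neither sum overlapped in FPKM, and SHMT4 did in CPM. CL6763.Contig5_All, the most abundant SHMT4 contig, measured 29.1, 22.8 and 31.4 CPM in trunking and 60.4, 46.8 and 27.4 CPM in non-trunking palms, and the groups overlapped through SN9 (log2 fold change 0.69, SE 0.32, edgeR adjusted p = 0.539). The 12 Unigenes matched to SHMT6 and SHMT7 exchanged places between palms. CL406.Contig7_All measured 8.42, 0 and 4.79 CPM against 4.19, 0.335 and 0 CPM, and its cluster mate CL406.Contig9_All measured 0, 5.60 and 8.03 CPM against 8.72, 8.87 and 7.65 CPM. A contig at 0 in 1 palm was thus present in others of the same group. Unigene53459_All, the most abundant of them by FPKM in 5 of the 6 libraries, had a log2 fold change of 0.51 (SE 0.60, edgeR adjusted p = 0.828). Summed over the 12, the level was 19.6, 19.5 and 30.2 FPKM in trunking and 25.2, 34.1 and 24.4 FPKM in non-trunking palms, with overlap and a ratio of 1.21. The cluster sum of the CL406 contigs had a log2 fold change of 0.19, where CL406.Contig7_All alone had -1.56 (SE 1.86). Whether the contigs are alleles, splice forms or assembly variants was not tested.

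**Figure D4:**
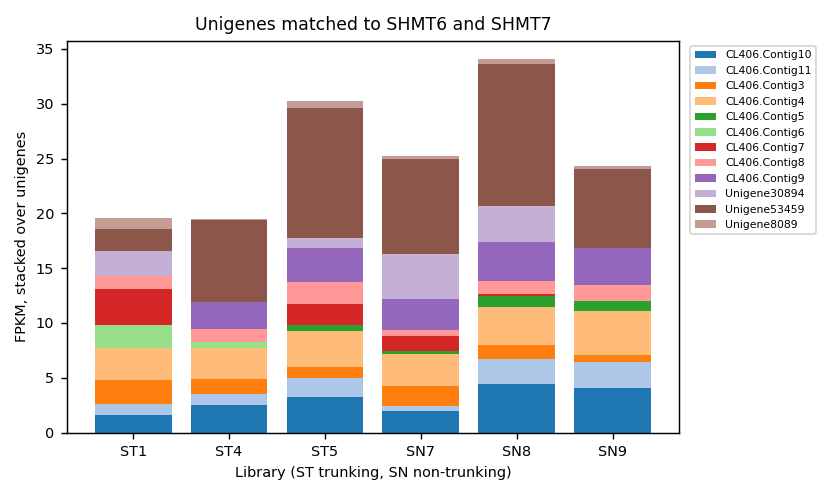
FPKM of the 12 Unigenes matched to SHMT6 and SHMT7, stacked within each library. The totals run from 19.5 to 34.1 FPKM with both groups mixed, and the CL406 contigs that make up a total differ from palm to palm.

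Summed by pathway, the Calvin cycle members reached 3310, 3458 and 2136 FPKM in trunking and 5533, 3664 and 4460 FPKM in non-trunking palms, a ratio of 1.53 with no overlap. FBA2 made up a large part of this, averaging 895.1 of 2968 FPKM in trunking and 1856 of 4552 FPKM in non-trunking palms. Left out of the sum by their SwissProt wording are abundant Unigenes of the same steps. Plastid aldolase without a number averaged 1456 against 2327 FPKM, with no overlap. The GAPA1 match of GAPDH subunit A averaged 595.5 against 883.7 FPKM, with overlap. By enzyme, the summed FPKM of FBA2, FBA3 and GAPDH subunit B did not overlap. Those of PGK, the subunit A members, SBPase, PRK and TKL did, so the separation was not shared by every enzyme of the cycle. The photorespiratory members reached 2058, 3152 and 1766 FPKM against 3030, 2852 and 3132 FPKM, a ratio of 1.29 with overlap through ST4. Photorespiratory FPKM over Calvin cycle FPKM was 0.622, 0.912 and 0.827 in trunking and 0.548, 0.778 and 0.702 in non-trunking palms. The groups overlapped in this balance, and ST1 and SN7 had the lowest values.

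The other steps of both pathways, taken by SwissProt names that the rule does not hold, gave 121 Unigenes with 107 tested. With edgeR 0 of them passed an adjusted p of 0.05. At an unadjusted p under 0.05, 8 were higher (7.48%) and 6 were lower (5.61%) in non-trunking palms. Without ST5 the count was 9 in all, for which no background share is given here. With all palms, 5.43% of all Unigenes tested were higher and 4.43% lower at this level, so both shares lay near the background. DESeq2 called 2 higher and 4 lower at an adjusted p under 0.05, where it called 2.22% of all Unigenes. The median log2 fold change was 0.20, below that of the members. Plastid aldolase without a number, the GLO5 form of glycolate oxidase, named 2-hydroxy-acid oxidase in SwissProt, and glycerate dehydrogenase, the main peroxisomal hydroxypyruvate reductase, had positive values. CL6338.Contig4_All (aldolase) had a log2 fold change of 0.78 and CL7871.Contig2_All (glycerate dehydrogenase) 0.89, both with no overlap, and CL8449.Contig1_All (GLO5) had 0.55 with overlap. Summed over the 7 Unigenes named 2-hydroxy-acid oxidase, the level was 1089 ± 225.6 FPKM (SD, n = 3) in trunking and 1544 ± 254.2 FPKM in non-trunking palms, with no overlap. Of the 3 contigs of plastid triosephosphate isomerase, which interconverts the triose phosphates, CL1873.Contig2_All had -0.48 with no overlap, the values ran from -0.58 to 0.47, and the summed FPKM overlapped between the groups. Summed levels of plastid fructose-1,6-bisphosphatase, ribulose-phosphate epimerase, ferredoxin-dependent glutamate synthase and the triose phosphate translocator had ratios of 0.963, 0.962, 0.999 and 1.02.

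The step with the lowest median log2 fold change (-2.11) was CP12, the small chloroplast protein that binds GAPDH and PRK into an inactive complex in the dark. CL389.Contig2_All measured 609.6, 1385 and 541.9 CPM in trunking and 179.3, 213.1 and 173.2 CPM in non-trunking palms. Every non-trunking palm lay well under every trunking palm. Its log2 fold change was -2.16 (SE 0.44, edgeR adjusted p = 0.225, DESeq2 adjusted p = 0.000149). Leaving out 1 palm gave -2.41 to -1.62. Unigene15255_All had a log2 fold change of -2.05 (SE 0.40, edgeR adjusted p = 0.212, DESeq2 adjusted p = 0.000173) and CL389.Contig1_All had -2.51 (edgeR adjusted p = 0.249, DESeq2 adjusted p = 0.0012). The remaining CP12 match, Unigene28650_All, measured 744.6, 515.1 and 527.2 CPM against 460.6, 466.8 and 330.5 CPM, a log2 fold change of -0.51 (edgeR adjusted p = 0.643, DESeq2 adjusted p = 0.631). All 4 lay lower in non-trunking palms with no overlap, as did 8.55% of all Unigenes tested. The 2 CL389 contigs share a cluster and are not separate evidence. Summed CP12 was 2143, 3679 and 1740 FPKM against 794.5, 1055 and 887.8 FPKM, a ratio of 0.362. CP12 FPKM over the FPKM of GAPDH A and B was 1.5, 2.41 and 1.86 in trunking and 0.323, 0.679 and 0.445 in non-trunking palms, and over PRK it was 4.28, 6.03 and 4.63 against 1.34, 2.51 and 1.76. By FPKM, CP12 stood above GAPDH in every trunking palm and below it in every non-trunking palm.

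**Figure D5:**
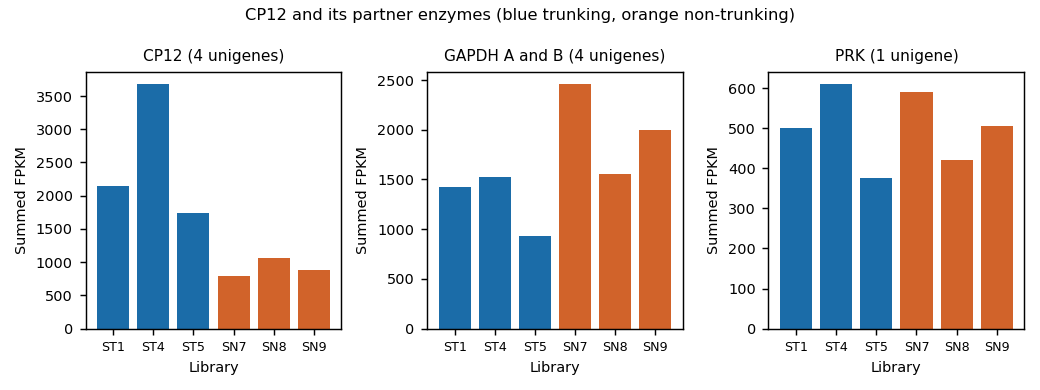
Summed FPKM of CP12 (4 Unigenes), of GAPDH subunits A and B (4 Unigenes, the GAPA1 match included) and of PRK (1 Unigene) in each library, blue for trunking and orange for non-trunking palms. CP12 lies between 1740 and 3679 FPKM in trunking and between 794.5 and 1055 FPKM in non-trunking palms, while PRK overlaps.

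The other 3 Unigenes past DESeq2's threshold were an H protein of glycine decarboxylase, which carries the lipoyl group of the complex, a Rubisco chaperone and a ribose-5-phosphate isomerase contig. CL4409.Contig2_All (H protein) measured 7.57, 7.32 and 6.54 CPM in trunking and 17.6, 25.2 and 17.3 CPM in non-trunking palms. The palms of each group lay close together there, and the log2 fold change was 1.49 (SE 0.23, edgeR adjusted p = 0.185, DESeq2 adjusted p = 0.000478). It is a minor form, since H protein Unigenes summed to 322.0 ± 136.0 CPM (SD, n = 3) in trunking palms. Unigene16873_All, matched to the RbcX1 chaperone, measured 82.3, 128.7 and 98.9 CPM against 48.4, 55.2 and 38.8 CPM, a log2 fold change of -1.12 (SE 0.26, edgeR adjusted p = 0.269, DESeq2 adjusted p = 0.0214). The RbcX2 matches went both ways. CL9565.Contig1_All had 0.86 with overlap (edgeR adjusted p = 0.452) and Unigene29511_All had 1.06 with no overlap (edgeR adjusted p = 0.42). The remaining RbcX2 match, the most abundant of them with a mean of 52.85 CPM, had -0.19 with overlap (edgeR adjusted p = 0.911). The summed FPKM of the 5 Rubisco assembly factors overlapped between the groups. The isomerase contig, CL477.Contig10_All, was scarce, with 0, 0 and 0.33 CPM in trunking and 2.6, 1.23 and 2.37 CPM in non-trunking palms, and its log2 fold change was 4.16 (SE 1.22, edgeR adjusted p = 0.367, DESeq2 adjusted p = 0.0348). It is 1 of 15 contigs of its cluster, and with counts summed over the cluster the value was -0.04.

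Markers of leaf cells and of the time of day were measured beside these results. Leaf mesophyll markers (Rubisco small chain, Rubisco activase and chlorophyll a-b binding proteins, 43 Unigenes, some of them in the list of other steps) summed to between 14760 FPKM (ST5) and 34140 FPKM (SN7), the same palms that were lowest and highest in the members, with groups overlapping and a median log2 fold change of 0.41 over the 39 tested. Rubisco small chain measured 3923, 7117 and 3787 FPKM against 10330, 4732 and 7632 FPKM. Rubisco activase was highest in ST1, with 6315, 3169 and 2794 FPKM against 5042, 5527 and 4245 FPKM. Dawn clock genes (LHY, CCA1 and REVEILLE names) summed to 326.5 to 717 FPKM in trunking and 787.2 to 936.1 FPKM in non-trunking palms, with 11 of 25 tested higher and 0 lower at an unadjusted p under 0.05 in edgeR's test. Dusk clock genes (GIGANTEA, pseudo-response regulators, ELF4 and LUX) summed to 1071 to 1229 FPKM against 482.8 to 991.4 FPKM, with 5 of 51 higher and 15 lower. Over all Unigenes tested, 5.43% were higher and 4.43% lower at an unadjusted p under 0.05 in edgeR's test. Neither clock sum overlapped between the groups, and no background for such sums is given here. Senescence markers ran from 20.7 to 86.2 FPKM in trunking and from 51.6 to 200.6 FPKM in non-trunking palms, with overlap, highest in SN7 and lowest in ST5. Most of this sum came from the SAG names. The stay-green names alone measured 4.08, 2.35 and 8.98 FPKM against 21.2, 32.12 and 11.97 FPKM, with no overlap. Phloem markers (126.9 to 288.5 FPKM), secondary wall cellulose synthases (11.5 to 23.7 FPKM), epidermal wax genes (209.0 to 530.1 FPKM) and B-type cyclins (86.2 to 114.8 FPKM) overlapped between the groups, and cyclin-dependent kinase B matched 0 Unigenes. The part of the clock, senescence and mesophyll values in the member differences was not tested.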

How the data were processed

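The authors sequenced leaf RNA of 6 palms on the BGISEQ-500 platform, assembled the reads with Trinity, clustered contigs with TGICL, and counted with Bowtie2 and RSEM, both also named in the submitters' processing notes (versions not given in the sources used here). Per library they deposited, for each Unigene, the expected count (estimated, unnormalized), the FPKM and the length. The files list a Unigene from an FPKM of 0.01 upward, and an unlisted one was set to 0. Library totals were 17927176 to 18492907 expected counts, and the precision of abundant Unigenes rests on the palms more than on counting. The palms are biological replicates according to the methods. A p-value sets the difference between the groups against the spread between palms of a group. The palms of a group stood together, so spread between places is not covered.

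Rounded expected counts went into edgeR 4.0.16 under R 4.3.3 (two-sided quasi-likelihood test, TMM, filterByExpr, Benjamini-Hochberg adjustment over all 45928 tested, threshold 0.05). The biological coefficient of variation was 0.497. DESeq2 1.42.0 (NA kept as NA in 46984 Unigenes) and limma 3.58.1 on log2(FPKM + 1), for an FPKM of at least 1 in 3 libraries, were run beside it. An exact permutation test of 3 against 3 palms cannot go below 0.1 and was not used. CPM are counts scaled by library total and TMM factor. Tables were made with Python 3.11.15, pandas 2.3.3, NumPy 2.4.6 and Matplotlib 3.10.9. The fits were also run on simulated counts, with less spread between libraries than in these data and larger changes than in most members. That run does not show how many changes of the size seen here would be found.

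The members and lists were chosen with earlier results of these data known, and the glycerate kinase and dehydrogenase patterns were narrowed after their matches, not their values, were read. Named are the most abundant member of each step, up to 5 members with the largest change in each direction at an unadjusted p under 0.05, and the most abundant Unigene of each other step. All others, such as the GGAT member, the second GDC-P contig, the SHMT7 contigs, the other CP12 matches, CL4409.Contig2_All, CL477.Contig10_All and the RbcX matches, were named after their values were seen. No batch is labelled.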

Additional observations from a re-analysis of the deposited data

How the results depend on the processing

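The count of members past an adjusted p of 0.05 was 0 under every alternative run: DESeq2 size factors, library size alone, no low count filter, DESeq2, limma with a pseudocount of 1 or 0.1, counts summed per cluster, and each palm left out. Members at an unadjusted p under 0.05 (5) numbered 9 of 64 with DESeq2 (6.52% of all Unigenes), 10 of 54 with limma at either pseudocount (10.2% of all with 1, 9.31% with 0.1), and 1 (without SN7) to 6 (without SN9) with a palm left out. The other steps (14) numbered 22 of 120 with DESeq2, beside the same 6.52% of all Unigenes, and 9 (without ST5) to 19 (without SN8). The share over all Unigenes without ST5, SN8 or SN9 is not given here, so these counts cannot be set against a background. The median log2 fold change of members (0.48) ran from 0.28 (without SN7) to 0.50 (without ST4). Members with no overlap (14) numbered 7 of 28 with counts summed per cluster, and 17 to 24 with a palm left out, an alternative chosen after seeing the data in which fewer palms have to be apart. The share over all summed clusters is not given here, so the 7 of 28 cannot be set against a background. The direction changed for CL10607.Contig2_All (-0.027 without ST5, -0.16 to 0.27 over all palms left out), CL3749.Contig1_All (-0.21 to 0.036), CL7271.Contig1_All (-0.057 to 0.64), CL6221.Contig2_All (-0.34 to 0.14), CL3749.Contig3_All (-0.089 with cluster sums), CL406.Contig7_All (0.19 with cluster sums) and CL477.Contig10_All (-0.040 with cluster sums). The cause of these changes was not tested, except that a cluster sum replaces a contig by its cluster. With DESeq2 6 named Unigenes passed that did not in edgeR's test. For the single Unigenes named, the other 518 alternative values kept their direction and side of the threshold. No paired analysis was possible because the groups share no replicate numbers. At these depths contigs under 1 CPM hold few counts, and a contig at 0 is not shown to be absent.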
